A study of Homo sapiens with 26 samples.

Results

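The genes described here make sterols and fatty acids, or control that synthesis, in a line of human bronchial epithelial cells. They were 31 genes chosen by symbol from pathway knowledge, with earlier results of these data known, of 58735 genes in the deposited tables. All 31 had a row and passed the filter on low counts in each of the 6 comparisons. By role, 7 enzymes lead from acetyl-CoA to farnesyl diphosphate, and 11 lead from there through squalene to cholesterol. A further 5 genes are transcription factors, regulators or a carrier of sterols, 5 supply acetyl-CoA or build the fatty acid chain, and 3 are desaturases.

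The study sequenced poly-T captured RNA from 26 libraries of 16HBE cells, an immortalised airway epithelial line, in 5 groups. The WT cells were the line 16HBE14o- with WT CFTR, in 6 libraries of normal glucose and 5 libraries of high glucose. The CF cells were 16HBEge with DeltaF508 CFTR, the commonest mutation of cystic fibrosis, in 6 libraries of each glucose level. Normal glucose was 5.5 mM and high glucose was 17.5 mM, given for 7 days with the medium changed daily, and the fifth group was 3 libraries of WT cells in normal glucose whose cells were labelled as not polarized. All groups carried the same protocol text, with 250000 cells plated per Transwell, a permeable support, and 2 Transwells pooled per sample. The CF cells are a gene-edited line, so the CFTR genotype and any other difference between these 2 lines cannot be told apart. The labels do not say whether libraries of a group were separate cultures, so the p-values measure only the spread between these libraries.

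Cells regulate both pathways largely through sterol regulatory element binding proteins (SREBPs). SREBP-2, encoded by SREBF2, acts mainly on sterol genes, and SREBP-1, encoded by SREBF1, acts mainly on fatty acid genes. When membrane sterols are low, SCAP carries the precursors from the endoplasmic reticulum to the Golgi, where they are cut and released to the nucleus. When sterols are high, INSIG1 holds SCAP back, and INSIG1 is itself a target of the factors it restrains. The epithelium uses the products for its membranes, in which cholesterol and unsaturated lipids set fluidity and the surroundings of channels and junction proteins.

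The promoters of 5 members are printed because these genes recur in the results: HMGCS1, FDPS and STARD4 were lower in CF cells, INSIG1 was higher, and SREBF2 was the member with a match to the sterol element searched. They were chosen after their values were seen, since no called member met the rule set for printing. Each window runs from 250 bases before to 50 bases after the start, 5′ to 3′ on the strand of the gene, from RefSeq on GRCh38.p14. Capitals mark CCAAT, the box bound by NF-Y, a partner of SREBPs, on either strand, and in SREBF2 also the sterol element TCACNCCAC. The windows are chr5:43313363-43313662 on the minus strand for HMGCS1, chr1:155308616-155308915 on the plus strand for FDPS, chr5:111512486-111512785 on the minus strand for STARD4, chr7:155297628-155297927 on the plus strand for INSIG1 and chr22:41832855-41833154 on the plus strand for SREBF2. HMGCS1 has 2 windows in the table, and the first is shown.
HMGCS1: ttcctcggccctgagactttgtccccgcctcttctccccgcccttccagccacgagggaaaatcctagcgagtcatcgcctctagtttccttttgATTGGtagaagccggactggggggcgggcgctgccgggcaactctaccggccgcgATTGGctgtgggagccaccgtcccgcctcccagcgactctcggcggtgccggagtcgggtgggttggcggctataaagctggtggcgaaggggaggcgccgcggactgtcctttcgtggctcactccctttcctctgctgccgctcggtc
FDPS: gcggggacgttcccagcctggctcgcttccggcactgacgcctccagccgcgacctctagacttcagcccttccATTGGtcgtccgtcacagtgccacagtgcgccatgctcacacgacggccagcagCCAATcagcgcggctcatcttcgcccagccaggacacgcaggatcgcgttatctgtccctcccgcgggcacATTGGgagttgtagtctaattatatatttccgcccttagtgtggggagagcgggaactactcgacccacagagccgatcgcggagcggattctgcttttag
STARD4: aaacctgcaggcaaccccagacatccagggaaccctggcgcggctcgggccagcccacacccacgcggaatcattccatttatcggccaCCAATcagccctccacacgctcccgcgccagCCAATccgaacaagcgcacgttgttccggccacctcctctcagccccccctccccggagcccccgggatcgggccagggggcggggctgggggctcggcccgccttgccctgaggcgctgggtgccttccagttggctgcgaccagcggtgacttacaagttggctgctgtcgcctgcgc
INSIG1: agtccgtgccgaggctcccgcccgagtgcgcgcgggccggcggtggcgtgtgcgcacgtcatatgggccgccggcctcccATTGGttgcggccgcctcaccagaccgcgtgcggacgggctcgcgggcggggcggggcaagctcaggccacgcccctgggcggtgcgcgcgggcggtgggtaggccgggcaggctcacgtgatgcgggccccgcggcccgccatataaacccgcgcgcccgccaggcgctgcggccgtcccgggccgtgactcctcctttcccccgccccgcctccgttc
SREBF2: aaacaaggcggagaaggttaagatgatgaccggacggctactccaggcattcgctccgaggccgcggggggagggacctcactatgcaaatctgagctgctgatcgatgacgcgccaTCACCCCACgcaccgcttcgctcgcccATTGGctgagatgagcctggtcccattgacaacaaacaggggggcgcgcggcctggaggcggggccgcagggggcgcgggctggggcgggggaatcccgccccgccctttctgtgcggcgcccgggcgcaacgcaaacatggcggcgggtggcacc

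RefSeq windows were matched by symbol for 27 of the 31 members, in 37 windows, and ACAT2, FASN, FDFT1 and SQLE had no entry. CCAAT stood in 25 of the 37 windows (67.6%), against 34.6% of all 35116 windows of this length. The GC box GGGCGG, a site of SP1 that often lies beside sterol elements, stood in 89.2% of the members' windows and in 45% of all windows. The E-box CACGTG stood in 13.5% against 7.26%, and TCACNCCAC stood in 1 window, that of SREBF2, against 1.13% of all windows. Each motif was searched on both strands, and none of the 4 contains another. Only these exact letters were searched, with N as any base, so other forms of the sterol element were not counted. In the printed windows the first CCAAT lay 155 bases before the start in HMGCS1, 176 in FDPS, 161 in STARD4, 170 in INSIG1 and 106 in SREBF2, where the sterol element lay 133 bases before the start. These matches are descriptions of the letters, and binding was not measured.

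Library totals ran from 14658319 to 20413839 counts, and the 31 members took 0.363% to 0.529% of them. Markers of the epithelial line summed to 5018 to 6823 CPM, reads of the gene scaled to the library's total, in all groups. The 6 secretory cell markers summed to at most 0.78 CPM, with MUC5AC and BPIFA1 at 0 in every library, and the 7 immune markers to at most 8.85 CPM. The 6 ciliated markers summed to 13.0 to 18.3 CPM in polarized WT cells, 17.7 to 28.0 CPM in CF cells and 9.63 to 12.1 CPM in not polarized cells, and the 7 fibroblast markers to 27.5 to 44.3, 16.3 to 31.1 and 13.8 to 14.9 CPM, with PDGFRA at 0 in 4 groups and DCN in 3. The 5 endothelial markers summed to 20.1 to 29.6 CPM in the polarized WT groups and to 32.6 to 64.6 CPM in the other 3 groups. The part of these low sums in the results was not tested. CFTR itself stood at 584 to 868 CPM, which does not check the label, since the deletion leaves the transcript countable. Within each glucose group the libraries numbered 1 to 3 stood apart from those numbered 4 to 6. The labels do not say what the numbers mean.

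A test between the number sets, added after the data were seen and fitted with the 4 glucose groups, called 20 of the 31 members lower and 1 higher in libraries numbered 4 to 6. Over all genes 49.6% were called, and 25.3% were called lower. The members' median difference was -0.19 on the log2 scale, against 0.01 over all genes tested. IDI1, the isomerase that supplies the allylic isoprenoid unit, stood at -0.70 (SE 0.061). SC5D and MSMO1, which work on the late sterol ring, stood at -0.48 and -0.43, INSIG1 at -0.37, DHCR7 at -0.31, SQLE at -0.30 and ACAT2 at -0.29. In these 7 genes no library numbered 4 to 6 reached the lowest library numbered 1 to 3 of its own group in any of the 4 groups. The share of all genes that separated in this way was not counted, so this is not shown to be particular to the members. ACACA was the member called higher, at 0.14. Results are given with all libraries first, then with a term for the number set in the model, and the members called in 1 set alone are named for each comparison.

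In WT cells in normal glucose, levels per gene length spanned a wide range, given here as FPKM deposited by the authors with mean ± SD over 6 libraries. SCD, the stearoyl-CoA desaturase that makes oleate, was the most abundant at 96.2 ± 8.44 FPKM. MSMO1, a methylsterol oxidase, followed at 74.3 ± 10.9 FPKM, DHCR7, which carries out a last reduction of cholesterol synthesis, at 62.3 ± 9.5 FPKM, SREBF2 at 54.9 ± 2.9 FPKM and FASN, the fatty acid synthase, at 48.7 ± 8.13 FPKM. The steps from SCD to MSMO1 and from MSMO1 to DHCR7 were larger than the SDs on either side, while DHCR7, SREBF2 and FASN each differed from the next by less than the larger SD. At the bottom, HSD17B7 stood at 4.63 ± 0.234 FPKM, CYP51A1 at 2.76 ± 0.487 FPKM and ELOVL6 at 2.31 ± 0.216 FPKM. SREBF1 stood at 25.8 ± 1.82 FPKM, below SREBF2 in every library. HSD17B7 has a near-identical pseudogene copy, and its counts are uncertain for that reason.

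CF cells had less RNA than WT cells for several sterol and fatty acid genes, and more for INSIG1. All 8 members called in high glucose were among the 13 called in normal glucose, with the same direction. In normal glucose 12 members were called lower and 1 higher, with an adjusted p under 0.05 from edgeR's quasi-likelihood test over all 16338 genes. The background was 24.4% called in either direction, 13.0% lower and 11.4% higher. Of the called members, FDFT1, TM7SF2, DHCR7, FADS1, FADS2 and INSIG1 lie in chromosome stretches shifted in the same direction, as given below. The calls of HMGCS1, FDPS, SREBF1, FASN and ACACA in normal glucose were not made in libraries numbered 1 to 3 alone. In high glucose 7 members were called lower and 1 higher, against a background of 19.9% called, 10.6% lower and 9.35% higher. The members' median log2 difference was -0.11 in normal glucose and -0.09 in high glucose, against 0.00 and 0.01 over all genes tested. All log2 values below are differences in CPM scaled by TMM factors, CF minus WT, with the standard error (SE). In bulk RNA, a change in the share of cells that express a gene and a change in RNA per cell cannot be told apart. Where groups are said not to overlap, here and below, the share of all genes without overlap was not counted.

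**Figure D1:**
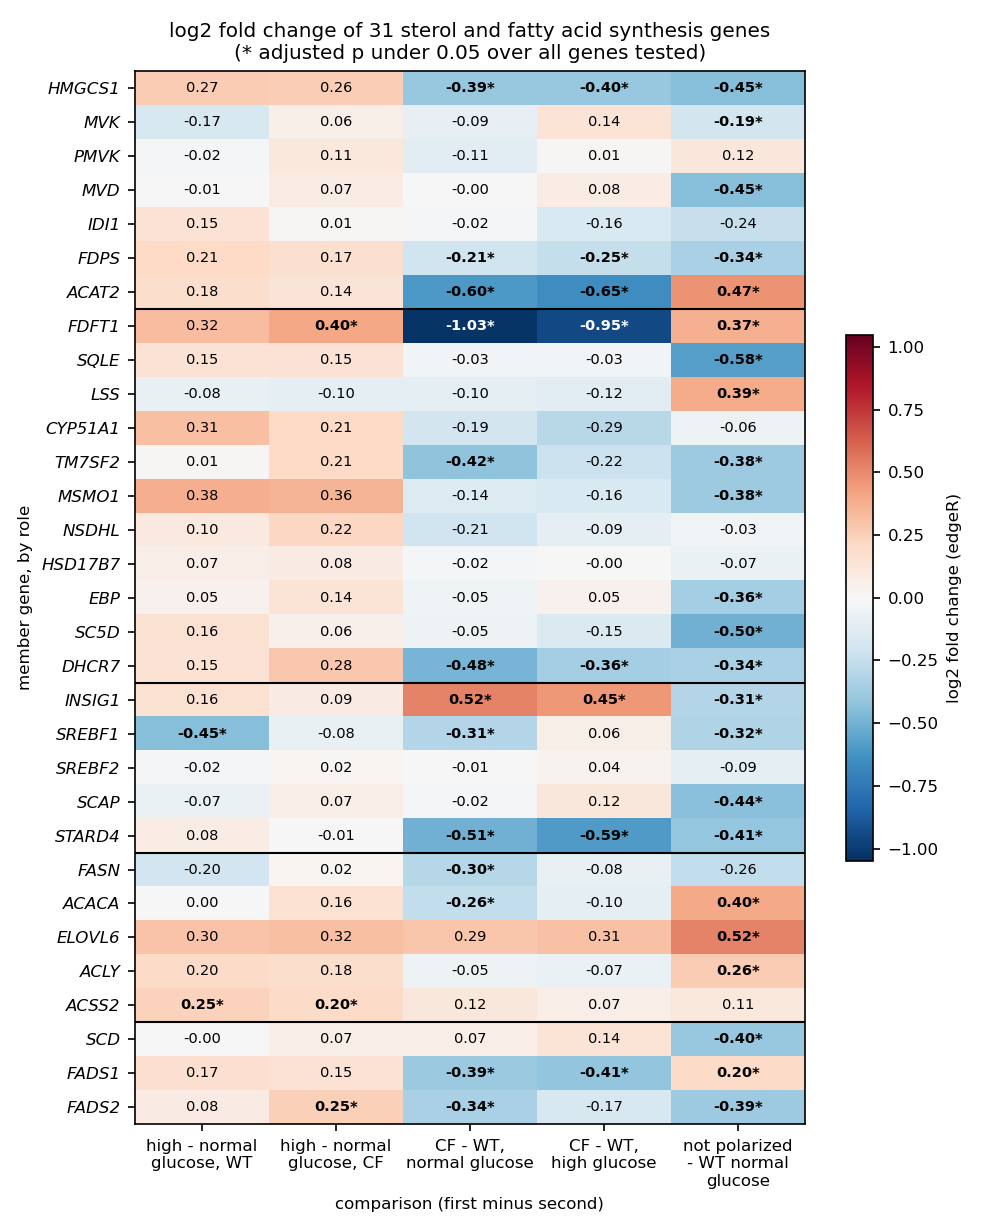
log2 fold changes of the 31 members (rows, grouped by role) in 5 comparisons (columns), each as first group minus second, with an asterisk and bold type where the adjusted p over all genes was under 0.05. The CF columns are mostly blue with INSIG1 at 0.52 and 0.45, the glucose columns are mostly pale red, and the last column holds both colours with 23 called members.

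In the first part of the sterol pathway, ACAT2, HMGCS1 and FDPS were lower in CF cells. ACAT2 (ENSG00000120437, chr6:159760328-159779055 on hg38) is the cytosolic thiolase that joins acetyl-CoA units. It gave 106 to 124 CPM (median 115) in WT cells in normal glucose and 58.5 to 94.3 CPM (median 75.0) in CF cells, and the groups did not overlap. The log2 difference was -0.60 (SE 0.108, 0.660-fold, adjusted p = 1.17e-04, edgeR). In high glucose the WT libraries gave 136, 133, 136, 132 and 114 CPM and the CF libraries 66.2 to 99.3 CPM (median 82.9), again without overlap. The difference there was -0.65 (SE 0.112, adjusted p = 8.69e-05, edgeR). ACAT2 overlaps TCP1 on the opposite strand, a gene with 252% of its counts, and the strand setting of the counting is not stated in the labels.

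HMGCS1 (ENSG00000112972, chr5:43289395-43313512) makes HMG-CoA, the branched precursor of the pathway. It gave 137 to 177 CPM (median 169) in WT cells in normal glucose, and 95.6 to 155 CPM (median 122) in CF cells. The groups overlapped, because the CF libraries numbered 1 to 3 gave 155, 142 and 155 CPM and those numbered 4 to 6 gave 99.8, 103 and 95.6 CPM. The log2 difference was -0.39 (SE 0.130, 0.761-fold, adjusted p = 0.0281, edgeR). In high glucose the WT libraries gave 190, 202, 202, 206 and 192 CPM and the CF libraries 117 to 189 CPM (median 146), which did not overlap. The difference was -0.40 (SE 0.136, adjusted p = 0.0379, edgeR). The HMGCS1 call was lost on leaving out any 1 of the CF libraries numbered 4 to 6 at either glucose level, of WT libraries 1 or 5 in normal glucose, or of WT libraries 3 or 4 in high glucose. It was also lost with no filter on low counts at both levels, and with unfiltered log2(FPKM + 1) in high glucose.

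FDPS makes farnesyl diphosphate, the branch point to sterols, dolichol, ubiquinone and protein prenylation. Its libraries gave 109 to 126 CPM (median 119) in WT cells and 93.2 to 112 CPM (median 99.1) in CF cells in normal glucose, a difference of -0.21 (SE 0.069, adjusted p = 0.0249, edgeR). In high glucose the WT libraries gave 151, 134, 143, 127 and 120 CPM and the CF libraries 99.9 to 125 CPM (median 115), a difference of -0.25 (SE 0.072, adjusted p = 0.0135, edgeR). The groups overlapped at both levels, and the call in normal glucose was lost without CF library 4, 5 or 6 or WT library 3. That call was also lost with no filter on low counts. MVK, PMVK, MVD and IDI1, the kinases, decarboxylase and isomerase between these steps, were not called at either level, with log2 differences of -0.16 to 0.14.

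In the second part, FDFT1 had the largest difference of all members. FDFT1 (ENSG00000079459, chr8:11795573-11839309 on hg38) encodes squalene synthase, the first enzyme committed to sterols. It gave 162 to 193 CPM (median 173) in WT cells in normal glucose and 72.5 to 107 CPM (median 83.1) in CF cells, with a wide gap between the groups. The log2 difference was -1.03 (SE 0.095, 0.489-fold, adjusted p = 3.85e-09, edgeR). In high glucose the WT libraries gave 234, 219, 231, 210 and 199 CPM and the CF libraries 99.9 to 128 CPM (median 113), a difference of -0.95 (SE 0.098, adjusted p = 3.59e-08, edgeR).

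DHCR7 and TM7SF2, which reduce double bonds of the sterol ring, were also lower in normal glucose. DHCR7 gave 216 to 323 CPM (median 262) in WT cells and 161 to 249 CPM (median 177) in CF cells, a difference of -0.48 (SE 0.108, 0.715-fold, adjusted p = 0.00136, edgeR). The groups overlapped in part because CF library 3 reached 249 CPM, above the other CF libraries. In high glucose DHCR7 gave 334, 304, 314, 264 and 239 CPM in WT cells and 206 to 245 CPM (median 229) in CF cells, a difference of -0.36 (SE 0.113, adjusted p = 0.0238, edgeR). This call was lost without CF library 6 or WT library 1 or 3, with no filter on low counts, and with unfiltered log2(FPKM + 1). TM7SF2 gave 27.0 to 38.1 CPM (median 33.6) in WT cells and 21.9 to 30.3 CPM (median 23.5) in CF cells in normal glucose, a difference of -0.42 (SE 0.102, adjusted p = 0.00281, edgeR). TM7SF2 overlaps VPS51 on the same strand, which has 379% of its counts. In high glucose TM7SF2 stood at -0.22 and was not called, while in libraries numbered 1 to 3 alone it was called lower at -0.34 (adjusted p = 0.0148, edgeR), against 0.00 in the other set. SQLE, LSS, CYP51A1, MSMO1, NSDHL, HSD17B7, EBP and SC5D were not called at either level, with log2 differences of -0.29 to 0.05.

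Among the regulators, STARD4 was lower and INSIG1 was higher in CF cells. STARD4 (ENSG00000164211, chr5:111496033-111512590) carries cholesterol between membranes and is a known target of SREBP-2. It gave 114 to 139 CPM (median 128) in WT cells in normal glucose and 75.2 to 103 CPM (median 90.4) in CF cells, a difference of -0.51 (SE 0.071, 0.703-fold, adjusted p = 3.28e-06, edgeR). In high glucose it gave 131, 139, 131, 138 and 134 CPM in WT cells and 85.7 to 96.8 CPM (median 87.9) in CF cells, a difference of -0.59 (SE 0.074, adjusted p = 6.75e-07, edgeR). STARD4 did not overlap between the lines at either level.

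INSIG1 (ENSG00000186480, chr7:155297776-155310235) gave 122 to 146 CPM (median 134) in WT cells in normal glucose and 159 to 240 CPM (median 185) in CF cells, and was higher in each CF library than in any WT library. The log2 difference was 0.52 (SE 0.116, 1.44-fold, adjusted p = 0.00129, edgeR). In high glucose it gave 170, 161, 173, 123 and 120 CPM in WT cells and 167 to 241 CPM (median 205) in CF cells, a difference of 0.45 (SE 0.122, adjusted p = 0.00869, edgeR). The 2 lines overlapped there at the lowest CF and the highest WT libraries, while within each number set they did not. SREBF1 gave 195 to 234 CPM (median 207) in WT cells and 158 to 182 CPM (median 166) in CF cells in normal glucose, a difference of -0.31 (SE 0.067, adjusted p = 0.00104, edgeR) without overlap. In high glucose SREBF1 stood at 0.06 and was not called, while in libraries numbered 1 to 3 alone it was called higher at 0.19 (adjusted p = 0.042, edgeR), against -0.13 (adjusted p = 0.127, edgeR) in the other set. SREBF2 and SCAP were not called at either level, with log2 differences of -0.02 to 0.12.

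On the fatty acid side, FASN and ACACA were lower in CF cells in normal glucose. FASN, which builds palmitate, stood at -0.30 (SE 0.10, adjusted p = 0.0311, edgeR), with 342 to 535 CPM in WT cells and 347 to 390 CPM in CF cells, so every CF library lay inside the WT range. ACACA, the acetyl-CoA carboxylase that makes malonyl-CoA, gave 105 to 155 CPM in WT cells and 99.1 to 123 CPM in CF cells, a difference of -0.26 (SE 0.082, adjusted p = 0.0193, edgeR). The FASN call was lost without any 1 library numbered 4 to 6 of either line, and the ACACA call without CF library 4 or WT library 4 or 5. The FASN call was also lost with no filter on low counts and in each FPKM setting, and the ACACA call with unfiltered log2(FPKM + 1). In high glucose FASN and ACACA stood at -0.08 and -0.10 and were not called with all libraries, but both were called lower in libraries numbered 4 to 6 alone, at -0.37 (adjusted p = 1.08e-05, edgeR) and -0.25 (adjusted p = 0.00791, edgeR), against 0.14 and -0.01 in those numbered 1 to 3. ACLY and ACSS2, which supply acetyl-CoA from citrate and from acetate, were not called at either level, with log2 differences of -0.07 to 0.12. ELOVL6, which lengthens palmitate, stood at 0.29 and 0.31 with adjusted p = 0.0652 and 0.0667 (edgeR).

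FADS1 and FADS2, the front-end desaturases of polyunsaturated fatty acids, were lower in CF cells in normal glucose. FADS1 gave 254 to 305 CPM (median 274) in WT cells and 187 to 245 CPM (median 210.4) in CF cells, a difference of -0.39 (SE 0.073, 0.765-fold, adjusted p = 2.11e-04, edgeR) without overlap. In high glucose it gave 350.3, 319, 338, 269 and 278 CPM in WT cells and 222 to 254 CPM (median 232) in CF cells, a difference of -0.41 (SE 0.077, adjusted p = 2.12e-04, edgeR). FADS2 gave 238 to 312 CPM in WT cells and 192 to 236 CPM in CF cells in normal glucose, at -0.34 (SE 0.072, adjusted p = 7.14e-04, edgeR) without overlap, and stood at -0.17 in high glucose, where it was not called. FADS1 and FADS2 overlap each other on opposite strands and FADS2 overlaps FEN1, so their counts may be split or mixed. SCD was not called at either level, at 0.07 and 0.14.

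**Figure D2:**
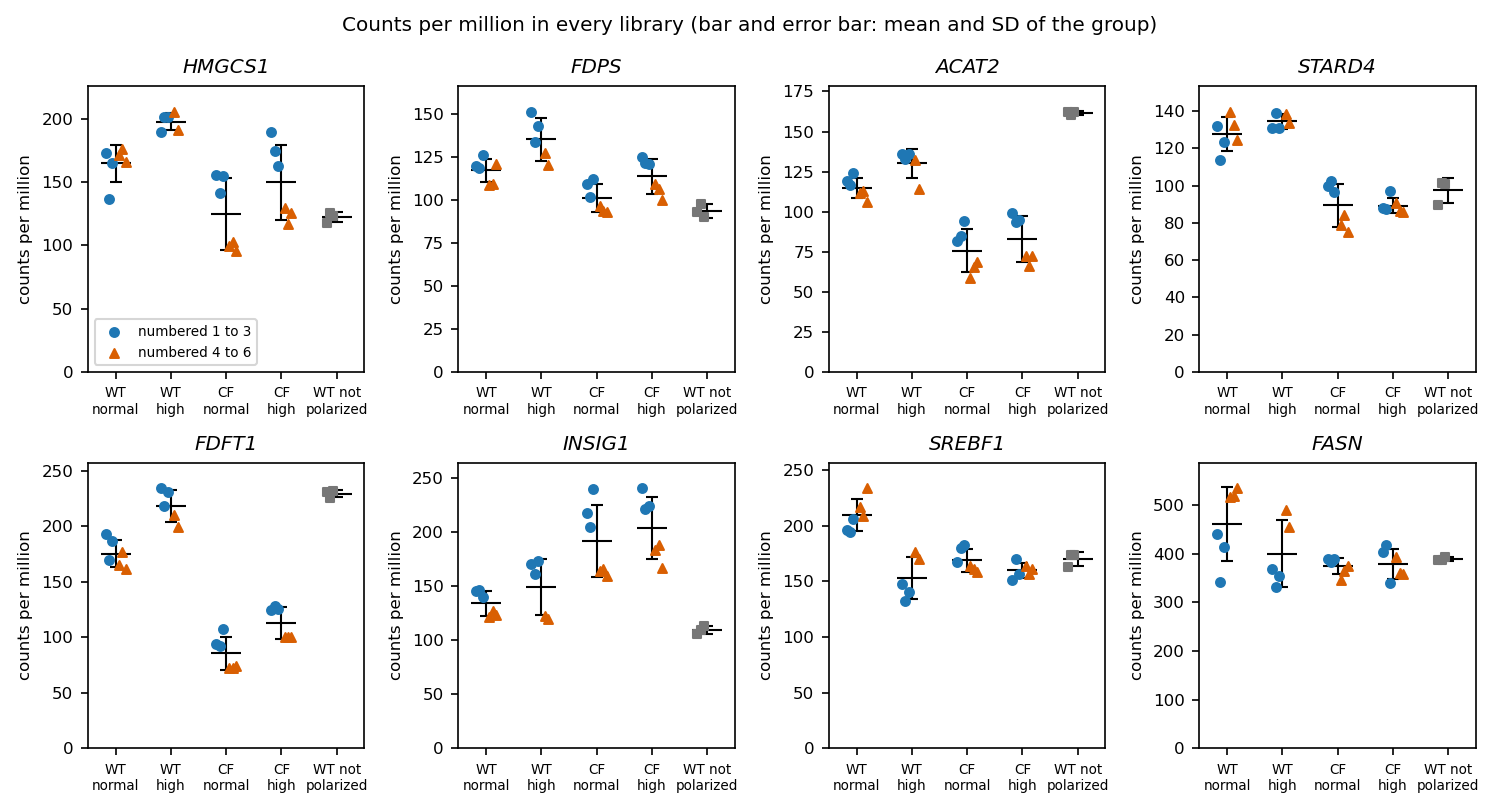
TMM-scaled CPM in every library for 8 members, by group, with circles for libraries numbered 1 to 3, triangles for those numbered 4 to 6, squares for the not polarized libraries, and a bar with error bars for the mean and SD. FDFT1, ACAT2 and STARD4 lie lower in all CF libraries, while HMGCS1 in CF cells falls into an upper cluster at 142 to 155 CPM and a lower cluster at 95.6 to 103 CPM in normal glucose.

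Several of these members lie in chromosome stretches whose median log2 difference between the lines lay away from 0. In normal glucose most genes near FDFT1, TM7SF2 and INSIG1 were called in the member's direction, and a minority near DHCR7, FADS1 and FADS2. Over all genes tested there, 13.0% were called lower and 11.4% higher. The 25 nearest tested genes on each side of FDFT1 on chromosome 8 had a median log2 difference of -0.93 in normal glucose, and 45 of these 50 neighbours were called lower. The neighbours of TM7SF2 on chromosome 11 had a median of -0.47, with 32 of 50 called lower, and those of DHCR7 on the same chromosome had a median of -0.30, with 21 lower and 3 higher. Around FADS1 and FADS2, also on chromosome 11, the median was -0.20, with 16 lower and 3 higher. The neighbours of INSIG1, of which there were 42 near the end of chromosome 7, had a median of 0.58, with 30 called higher and 0 lower.

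The other called members had neighbours with medians near 0 in normal glucose. In normal glucose the neighbour medians were 0.03 for HMGCS1, 0.04 for FDPS, 0.03 for STARD4, -0.07 for ACAT2, -0.03 for SREBF1, -0.03 for FASN and -0.02 for ACACA, all with 50 neighbours. In high glucose the medians were -1.03 for FDFT1, -0.33 for TM7SF2, -0.35 for DHCR7, -0.16 for FADS1 and 0.52 for INSIG1, and -0.02 for HMGCS1, 0.11 for FDPS, -0.02 for STARD4 and -0.18 for ACAT2. With 10 genes on each side, the neighbour medians in normal glucose were -0.998 for FDFT1 and 0.50 for INSIG1. DNA copy number was not measured, and the part of these stretches in the members' values was not tested. The neighbour windows were added after the data were seen.

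**Figure D3:**
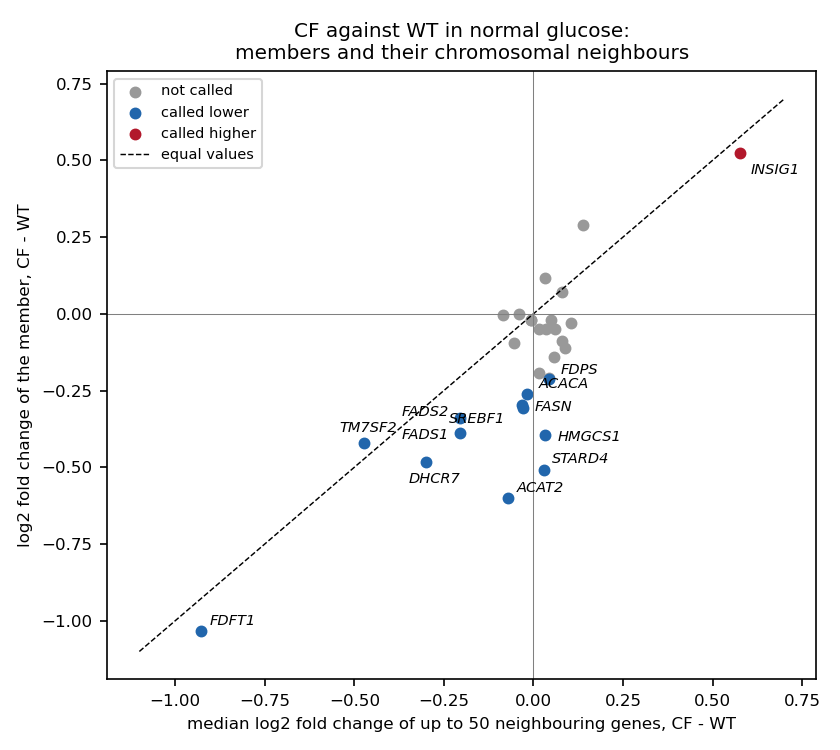
log2 difference between CF and WT cells in normal glucose for each member (vertical axis) against the median of up to 50 neighbouring tested genes on its chromosome (horizontal axis), with the dashed line where both are equal. FDFT1, TM7SF2 and INSIG1 lie near the line, at neighbour medians of -0.93, -0.47 and 0.58, while ACAT2, STARD4 and HMGCS1 lie below it at neighbour medians near 0.

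The difference between the lines also depended on the number set. With a term for the number set, 14 members were called lower and 2 higher in normal glucose (background 34.5%), and 9 lower and 3 higher in high glucose (background 30.4%). ELOVL6 joined the higher members at both levels, at 0.27 (SE 0.080, adjusted p = 0.00656, edgeR) and 0.32 (SE 0.081, adjusted p = 0.00191, edgeR), and SCD joined them in high glucose at 0.17 (SE 0.055). MSMO1 and NSDHL joined the lower members in normal glucose, at -0.15 and -0.21, and CYP51A1 and FADS2 in high glucose, at -0.26 and -0.15. All 13 and 8 calls made without the term were also made with it.

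Whether the line difference itself differed between the sets was tested with a mean for each group and set, a test added after the data were seen. In normal glucose 7 of the 31 members were called, all with a CF minus WT value that was lower in libraries numbered 4 to 6, against a background of 3.01%. They were HMGCS1, FASN, STARD4, MVK, ACAT2, FDFT1 and SREBF1. MVK overlaps MMAB on the opposite strand, which has 55.5% of its counts. In high glucose 3 were called in the same direction, HMGCS1, FASN and SREBF1, against a background of 2.03%. For HMGCS1 the difference between sets was -0.74 (SE 0.10, adjusted p = 9.15e-06, edgeR) in normal glucose and -0.54 (SE 0.104, adjusted p = 0.00284, edgeR) in high glucose. For FASN it was -0.51 (SE 0.102, adjusted p = 0.00227, edgeR) and -0.53 (SE 0.108, adjusted p = 0.00558, edgeR).

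Within the sets, HMGCS1 stood at -0.06 (adjusted p = 0.622, edgeR) in normal glucose in libraries numbered 1 to 3 and at -0.79 (adjusted p = 5.60e-14, edgeR) in those numbered 4 to 6. FASN stood at -0.03 (adjusted p = 0.827) and -0.53 (adjusted p = 5.61e-10), ACACA at -0.09 (adjusted p = 0.467) and -0.42 (adjusted p = 2.76e-06), SREBF1 at -0.16 (adjusted p = 0.0759) and -0.45 (adjusted p = 2.22e-08), and FDPS at -0.17 (adjusted p = 0.0707) and -0.26 (adjusted p = 7.53e-04), all by edgeR. These 5 calls were thus not made in the libraries numbered 1 to 3 alone. MVK, IDI1, LSS and MSMO1 were also called lower in libraries numbered 4 to 6 alone, at -0.28, -0.30, -0.23 and -0.25, against 0.08, 0.15, 0.04 and -0.06 in those numbered 1 to 3. NSDHL and EBP were called lower in libraries numbered 1 to 3 alone, at -0.25 and -0.19, and ELOVL6 higher at 0.47, against -0.16, 0.11 and 0.06. FDFT1, ACAT2, STARD4, DHCR7, TM7SF2, FADS1, FADS2 and INSIG1 were called in the same direction in both sets. Over all genes, 22.8% were called in the first set alone and 30.3% in the second. In high glucose the 7 members called in both sets were FDFT1, ACAT2, STARD4, DHCR7, FADS1, FDPS and INSIG1, while HMGCS1 stood at -0.17 (adjusted p = 0.136, edgeR) and -0.70 (adjusted p = 1.76e-11, edgeR). SREBF1, TM7SF2, FASN and ACACA had the set values given above. MSMO1 and FADS2 were called lower in libraries numbered 1 to 3 alone, at -0.20 and -0.23, and ELOVL6 higher at 0.41, against -0.02, -0.07 and 0.18. LSS and ACLY were called lower in libraries numbered 4 to 6 alone, at -0.20 and -0.22, and EBP and SCD higher at 0.24 and 0.20, against -0.05, 0.04, -0.06 and 0.11. Over all genes, 19% were called in the first set alone and 27.9% in the second. A call in 1 set alone does not show a difference between the sets, which was tested above.

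**Figure D4:**
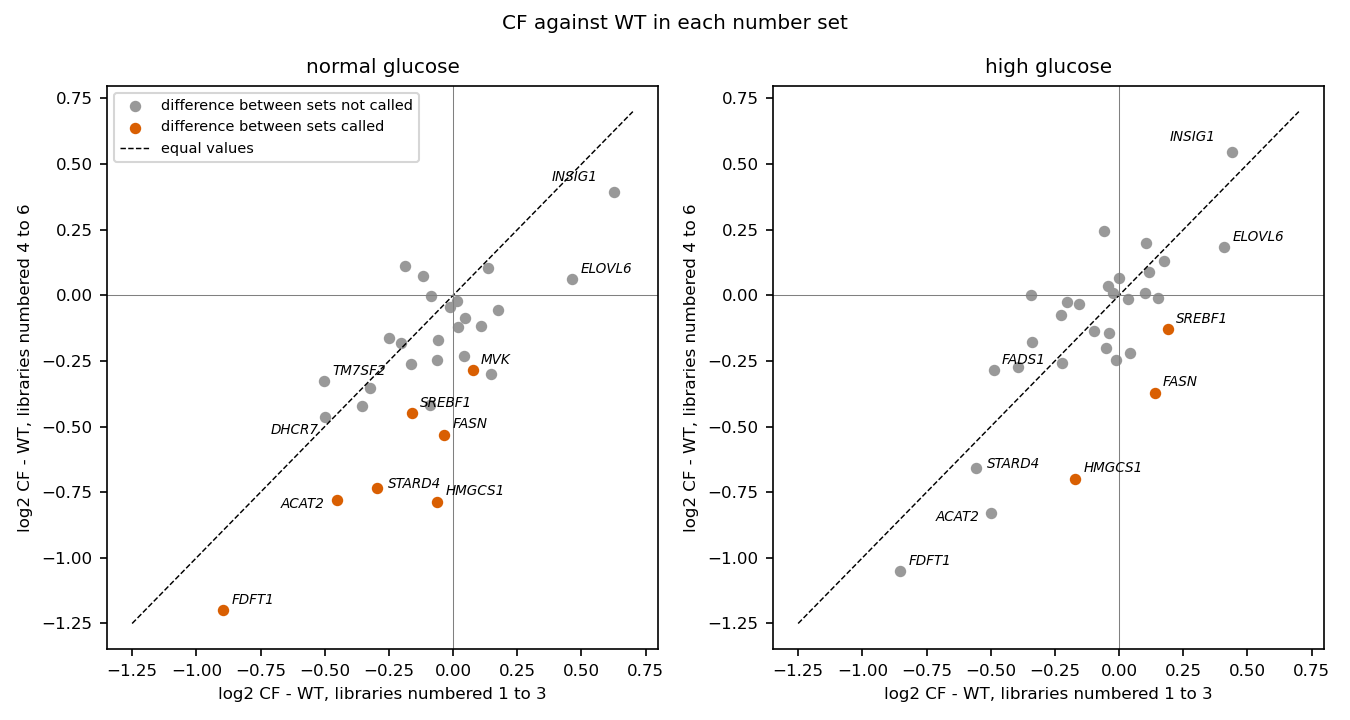
CF minus WT log2 difference of each member in libraries numbered 1 to 3 (horizontal axis) against libraries numbered 4 to 6 (vertical axis), in normal glucose (left) and high glucose (right), with the dashed line where both are equal and orange points where the difference between the sets was called. The 7 orange points on the left and the 3 on the right all lie below the line, with HMGCS1 at -0.06 against -0.79 on the left.

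High glucose moved few members past the threshold when all libraries were compared by group means. In WT cells 1 member was called higher and 1 lower, against a background of 2.96% called, 1.49% higher and 1.47% lower. In CF cells 3 were called higher and 0 lower, against 8.41% called, 4.27% higher and 4.14% lower. The members' median log2 difference, high minus normal glucose, was 0.10 in WT cells and 0.14 in CF cells, against 0.00 over all genes tested in both, and 22 and 28 of the 31 were above 0. The WT high glucose group lacks a library numbered 6, so the number sets are not balanced there. With a term for the number set the members' medians were 0.07 in WT cells and 0.14 in CF cells. The glucose comparison of each line shares its normal glucose libraries with the line comparison above, so the values of both are not independent.

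SREBF1 (ENSG00000072310, chr17:17810399-17837002) was the member called lower in WT cells. It gave 195 to 234 CPM (median 207) in normal glucose and 147, 132, 140.1, 176 and 170 CPM in high glucose, so every high glucose library lay below every normal glucose library. The log2 difference was -0.45 (SE 0.071, 0.734-fold, adjusted p = 6.39e-04, edgeR). It was called in both number sets alone, at -0.50 and -0.33. In CF cells SREBF1 gave 158 to 182 CPM (median 166) in normal glucose and 152 to 171 CPM (median 159) in high glucose, at -0.08 (SE 0.067), and was not called. The difference between the lines in this response was 0.37 (SE 0.098, adjusted p = 0.218, edgeR) by group means. No member was called in that interaction test, against a background of 0.0367%, and SREBF1 was the 1 member with an unadjusted p under 0.05. DESeq2 called SREBF1 there (adjusted p = 0.0487), and over all alternatives its adjusted p ran from 0.0267 to 0.424. With a term for the number set, SREBF1 was called at 0.36 (SE 0.084, adjusted p = 0.0267, edgeR), the only member called, against a background of 0.894%. SREBF1 overlaps RAI1 on the opposite strand, which has 52.9% of its counts.

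ACSS2, FADS2 and FDFT1 were the members called higher. ACSS2, the acetyl-CoA synthetase of the cytosol and nucleus, gave 49.96 to 61.1 CPM (median 54.0) in WT cells in normal glucose and 65.1, 65.8, 58.3, 68.3 and 67.6 CPM in high glucose, with 1 high glucose library inside the normal range. The difference was 0.25 (SE 0.060, 1.19-fold, adjusted p = 0.0208, edgeR). In CF cells it gave 57.0 to 64.0 CPM (median 58.8) and 63.3 to 72.3 CPM (median 69.8), at 0.20 (SE 0.057, adjusted p = 0.0256, edgeR). In WT cells ACSS2 was called in libraries numbered 4 to 6 alone (0.28, adjusted p = 0.0265, edgeR), and missed the threshold in those numbered 1 to 3 (0.24, adjusted p = 0.0687, edgeR) and with the compared groups alone. In CF cells it was called in neither set alone, at 0.21 (adjusted p = 0.0703, edgeR) and 0.19 (adjusted p = 0.0809, edgeR). FDFT1 was called in CF cells, with 72.5 to 107 CPM (median 83.1) in normal glucose and 99.9 to 128 CPM (median 113) in high glucose, at 0.40 (SE 0.095, 1.32-fold, adjusted p = 0.00769, edgeR). In WT cells FDFT1 stood at 0.32 (SE 0.098, adjusted p = 0.0763, edgeR), although the high glucose libraries, from 199 CPM, all lay above the normal glucose libraries, up to 193 CPM. FADS2 in CF cells gave 192 to 236 CPM (median 204) and 233 to 260 CPM (median 253), at 0.25 (SE 0.072, adjusted p = 0.0263, edgeR). Leaving out single CF libraries ended the ACSS2 call in CF cells for 8 of the 12 libraries and the FADS2 call for 6 of the 12, and the FDFT1 call for none. With no filter on low counts the ACSS2 call was lost in both lines. ACSS2 overlaps GGT7 on the opposite strand, which has 66.1% of its counts.

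With a term for the number set, more members were called in the same direction. In WT cells 7 were higher and 1 lower, against a background of 8.68%, and in CF cells 12 were higher and 0 lower, against 17.2%. Higher in both lines were the sterol genes FDPS, FDFT1 and MSMO1 and the fatty acid genes ACLY, ACSS2, ELOVL6 and FADS1. MSMO1 stood at 0.33 (SE 0.055, adjusted p = 7.54e-05, edgeR) in WT cells and 0.38 (SE 0.053, adjusted p = 1.65e-06, edgeR) in CF cells. FDFT1 stood at 0.29 (SE 0.056, adjusted p = 5.26e-04, edgeR) and 0.41 (SE 0.055, adjusted p = 1.00e-06, edgeR), and ELOVL6 at 0.28 (SE 0.083, adjusted p = 0.0297, edgeR) and 0.32 (SE 0.078, adjusted p = 0.00271, edgeR). SQLE, TM7SF2, NSDHL, DHCR7 and FADS2 were called in CF cells and not in WT cells, and the interaction test called none of these 5.

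MSMO1, a methylsterol oxidase, overlapped between glucose levels across the number sets and not within them. In WT cells it gave 252, 230.2 and 254 CPM in normal glucose libraries numbered 1 to 3 and 178, 198.5 and 191.5 CPM in those numbered 4 to 6, with 319, 315, 330.1, 243 and 208 CPM in high glucose. Within either set every high glucose library lay above every normal glucose library, while across sets they overlapped. In CF cells it gave 157 to 255 CPM (median 190.3) in normal glucose and 221 to 294 CPM (median 245) in high glucose. MSMO1, FDFT1 and SREBF1 were called in both sets alone in WT cells, as was HMGCS1 at 0.33 and 0.23. HMGCS1 was not called there with all libraries, at 0.27 (adjusted p = 0.357, edgeR), or with the term, at 0.24 (adjusted p = 0.255, edgeR). FDFT1 and MSMO1 were called in both sets alone in CF cells. In WT cells FDPS was called higher in libraries numbered 1 to 3 alone, and ELOVL6, ACLY and ACSS2 in those numbered 4 to 6 alone. In CF cells NSDHL was called higher in libraries numbered 1 to 3 alone, and HMGCS1, SQLE, DHCR7, ACACA, SCD, ELOVL6, FADS1 and FADS2 in those numbered 4 to 6 alone, with SCD at -0.09 and 0.25. In the interaction, MVK and SREBF1 were called higher in libraries numbered 4 to 6 alone, at 0.42 and 0.32, against 0.10 and 0.35. Over all genes, 2.65% and 4.88% were called in WT cells, 8.44% and 13.8% in CF cells and 0.00626% and 2.29% in the interaction, in the first and second set. Whether the glucose response differed between the sets was not tested. SREBF2 was not called in either line, at -0.02 (SE 0.049) in WT cells and 0.02 (SE 0.046) in CF cells.

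**Figure D5:**
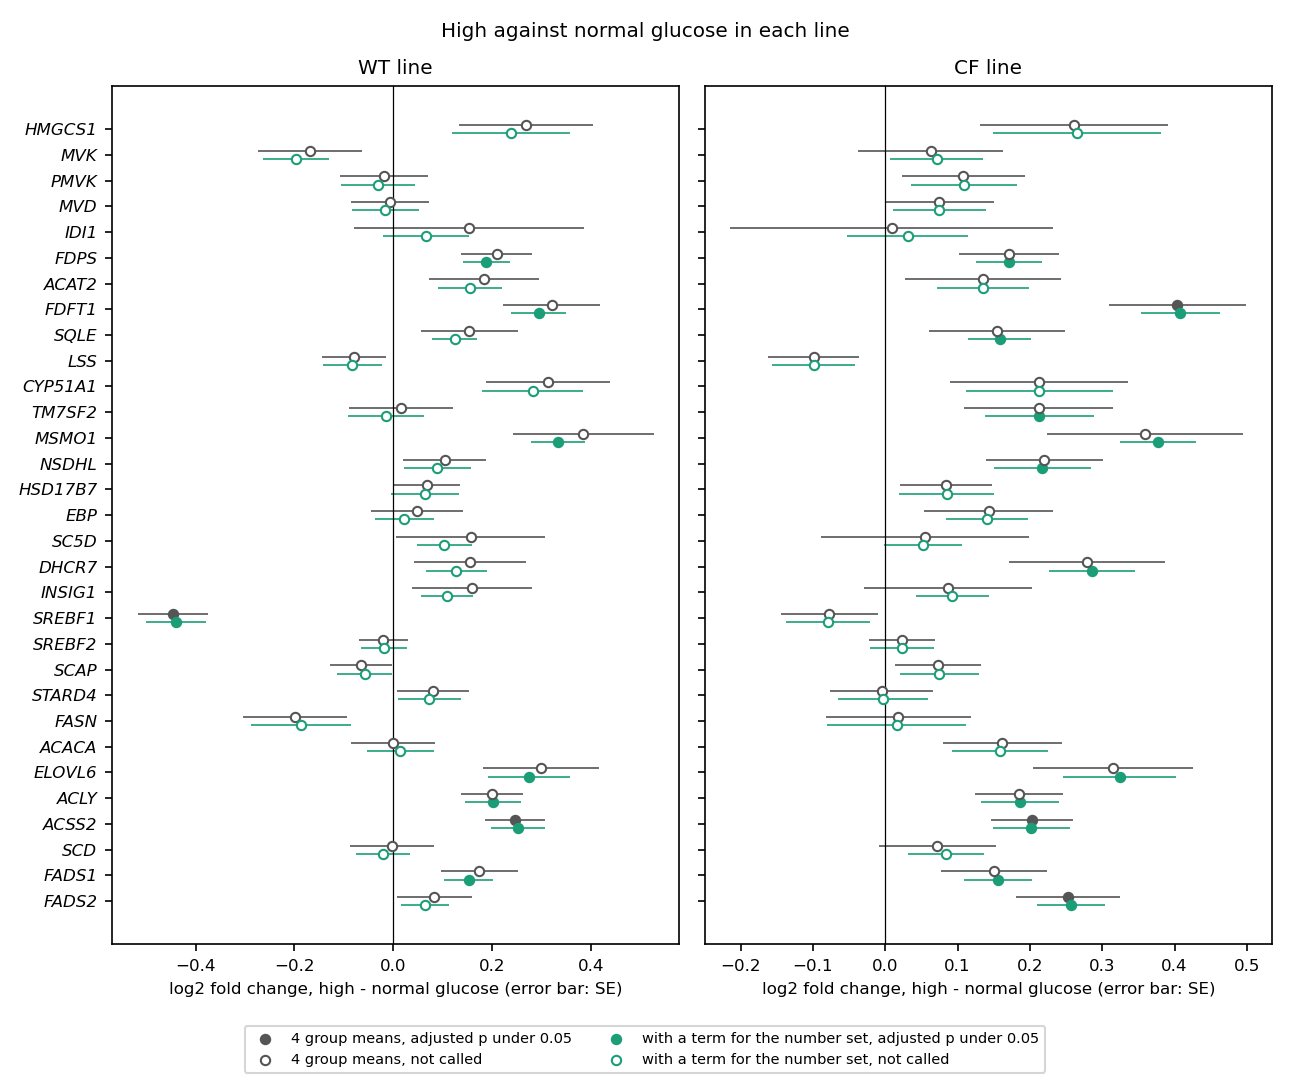
log2 difference between high and normal glucose (horizontal axis, error bars SE) for each member in WT cells (left) and CF cells (right), from group means (grey) and with a term for the number set (green), with filled points where the adjusted p was under 0.05. Most values move little between the models and most error bars are shorter with the term, and 8 and 12 points are filled in green against 2 and 3 in grey, and SREBF1 in WT cells lies lowest at -0.45.

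WT cells labelled as not polarized were compared with the 6 libraries of polarized WT cells in normal glucose, and the members went both ways. Of the 31 members, 16 were called lower and 7 higher in not polarized cells, against a background of 50% called, 26% lower and 24.0% higher among 16105 genes. The members' median was -0.26, against -0.02 over all genes tested. The labels do not say which number set the 3 not polarized libraries were made with, so any set difference and the culture state cannot be told apart. Against libraries numbered 1 to 3 alone, 17 members were called lower and 8 higher, and against those numbered 4 to 6 alone 17 lower and 7 higher, with 22 called in the same direction in both. Over all genes, 58.2% and 58.4% were called in these fits.

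Sterol enzymes were mostly lower in not polarized cells. SQLE, the squalene epoxidase, gave 138 to 179 CPM (median 155) in polarized cells and 108, 108 and 103 CPM in not polarized cells, at -0.58 (SE 0.090, 0.671-fold, adjusted p = 1.28e-04, edgeR). SC5D gave 34.8 to 53.0 CPM (median 42.8) and 32.4, 32.3 and 28.6 CPM, at -0.50 (SE 0.138, adjusted p = 0.00844, edgeR). HMGCS1 gave 137 to 177 CPM (median 169) and 118, 125 and 123 CPM, at -0.45 (SE 0.078, adjusted p = 2.93e-04, edgeR). MVD, the decarboxylase of the mevalonate steps, gave 92.3 to 116 CPM (median 105) and 77.5, 75.8 and 80.2 CPM, at -0.45 (SE 0.074, adjusted p = 1.90e-04, edgeR). None of these 4 genes overlapped between the groups. The share of all genes without overlap was not counted, so this is not shown to be particular to the members. MSMO1, TM7SF2, EBP, DHCR7 and FDPS were also called lower, at -0.38 to -0.34, DHCR7 only with all 3 not polarized libraries in the fit, and MVK at -0.19, a call that 14 of its 20 alternatives did not make, libraries numbered 4 to 6 alone among them.

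ACAT2, FDFT1 and LSS were the sterol enzymes called higher. ACAT2 gave 106 to 124 CPM (median 115) in polarized cells and 162, 160.2 and 162 CPM in not polarized cells, at 0.47 (SE 0.059, 1.39-fold, adjusted p = 1.74e-05, edgeR). FDFT1 stood at 0.37 (SE 0.065) and LSS, the lanosterol synthase, at 0.39 (SE 0.072), both without overlap. Of the regulators, SCAP gave 53.5 to 61.1 CPM (median 57.6) and 46.4, 41.6 and 40.8 CPM, at -0.44 (SE 0.070, adjusted p = 1.41e-04, edgeR). STARD4 gave 114 to 139 CPM (median 128) and 89.6, 102 and 101 CPM, at -0.41 (SE 0.074, adjusted p = 4.56e-04, edgeR). SREBF1 and INSIG1 were called lower, at -0.32 and -0.31, and SREBF2 was not called, at -0.09, although it was called lower against libraries numbered 4 to 6 alone, at -0.13 (adjusted p = 0.0254, edgeR).

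Of the 5 genes that feed and build the fatty acid chain, 3 were called higher and 2 were not called with all libraries. ELOVL6 gave 15.1 to 20.02 CPM (median 16.8) in polarized cells and 22.7, 25.6 and 25.9 CPM in not polarized cells, at 0.52 (SE 0.092, 1.44-fold, adjusted p = 3.38e-04, edgeR). ACACA stood at 0.40 (SE 0.098) and ACLY at 0.26 (SE 0.070), both called and without overlap, while ACSS2 at 0.11 and FASN at -0.26 were not called. FASN was called lower against libraries numbered 4 to 6 alone, at -0.45 (adjusted p = 4.18e-09, edgeR), and stood at -0.04 (adjusted p = 0.651, edgeR) against those numbered 1 to 3, where ACSS2 was called higher at 0.17 (adjusted p = 0.0258, edgeR). Of the desaturases, SCD was lower at -0.40 (SE 0.075), FADS2 was lower at -0.39 (SE 0.081) and FADS1 was higher at 0.20 (SE 0.066), a call lost without any 1 of the not polarized libraries. IDI1, PMVK, CYP51A1, NSDHL and HSD17B7 were not called, at -0.24 to 0.12. IDI1 was called lower against libraries numbered 1 to 3 alone, at -0.45 (adjusted p = 1.70e-05, edgeR), and stood at 0.01 (adjusted p = 0.896, edgeR) against those numbered 4 to 6.

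Neighbouring pathway genes, from lists chosen with earlier results of these data known, were read with the same tests. Chromosome windows were read for the members only, so the part of chromosome stretches in the values of these lists was not tested. Their counts are set beside the share of all genes called, which was 24.4% for CF against WT cells in normal glucose, 19.9% in high glucose, 2.96% and 8.41% for glucose in WT and CF cells, and 50% for not polarized cells. Of 20 genes of SREBP processing and turnover, 4 were higher and 1 lower in CF cells in normal glucose, and 2 were higher and 1 lower in high glucose, against 24.4% and 19.9% of all genes called, so these counts lay near or below the background. ERLIN2, a part of the complex that removes sterol-regulated proteins, stood at -1.103 (SE 0.061) and -1.136 (SE 0.064). INSIG2, the second INSIG, was higher in normal glucose at 0.48 (SE 0.112), and NFYA, a subunit of NF-Y, at 0.35 (SE 0.070) and 0.25 (SE 0.074), with MBTPS1, a protease of SREBPs, at 0.14 in high glucose. INSIG2 also fell with high glucose in CF cells, by 0.64 on the log2 scale (SE 0.113, adjusted p = 6.39e-04, edgeR), and was the only gene of the list called there. In WT cells SEC23A, a coat protein of the vesicles that carry SCAP, was higher at 0.22, the only gene called. In not polarized cells 3 were higher and 4 lower (50% of all genes called), among them INSIG2 at -0.72 and SP1 at 0.28.

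Of 19 tested genes of sterol uptake, esterification and efflux, 5 were higher and 3 lower in CF cells in normal glucose, and 6 were higher and 1 lower in high glucose, against 24.4% and 19.9% of all genes called. NCEH1, which hydrolyses cholesteryl ester, was lower at -0.26 and -0.35. NPC2, a sterol carrier of the lysosome, stood at 0.43 and ABCG1, a sterol exporter, at -0.71 in normal glucose, and MYLIP at 0.74 and CYP27A1 at 0.55 in high glucose. High glucose raised NCEH1 in WT cells by 0.40 (SE 0.059, adjusted p = 2.00e-04, edgeR) and in CF cells by 0.32 (SE 0.056, adjusted p = 6.29e-04, edgeR), with RXRA at -0.32 in WT cells and CYP27A1 at 0.40 in CF cells. In not polarized cells 6 were higher and 7 lower (50% of all genes called), with LRP1 at -1.72, NR1H2 at -0.38 and VLDLR at 0.56.

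In the isoprenoid branch, which draws on farnesyl diphosphate, 0 of 12 genes were higher and 2 lower in CF cells at both glucose levels, below the 24.4% and 19.9% of all genes called. FNTA, a farnesyltransferase subunit, stood at -0.64 and -0.80 and PDSS2, of ubiquinone synthesis, at -0.26 and -0.27. High glucose moved FNTB to -0.30 in CF cells, and 0 genes were called in WT cells by edgeR. In not polarized cells 5 were higher and 1 lower (50% of all genes called), with FNTA at -0.45, ICMT at 0.37 and NUS1 at 0.27.

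Among 28 tested genes of fatty acid elongation and activation, 2 were higher and 4 lower in CF cells in normal glucose, and 4 higher and 2 lower in high glucose, near the 24.4% and 19.9% of all genes called. ACSL5, an acyl-CoA synthetase, was higher at 1.99 (SE 0.119, 3.98-fold) and 1.53 (SE 0.122), from 3.24 to 12.9 CPM on average in normal glucose. ME1, the malic enzyme that supplies NADPH, was lower at -0.92 and -0.72, SLC27A4 at -0.34 in normal glucose, and ACSL1 was higher at 0.33 in high glucose. High glucose raised 5 of these genes and lowered 0 in CF cells, among them SLC27A4 at 0.48, SLC27A1 at 0.32 and ELOVL1 at 0.29, and raised ELOVL1 alone in WT cells, at 0.27. In not polarized cells 9 of 27 were higher and 6 lower (50% of all genes called), with SLC27A1 at -1.21, ME1 at 1.08 and MID1IP1 at 0.72.

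Of 23 tested genes of fatty acid oxidation, the pathway that runs against synthesis, 0 were higher and 3 lower in CF cells in normal glucose, and 0 higher and 2 lower in high glucose, below the 24.4% and 19.9% of all genes called. CPT1A, the gate of fatty acid entry into mitochondria, stood at -0.78 (SE 0.073) and -0.72 (SE 0.075), ECI2 at -0.44 and -0.41, and CPT2 at -0.31 in normal glucose. High glucose moved CPT2 to 0.37 and PPARA to -0.29 in CF cells, and 0 genes were called in WT cells by edgeR. In not polarized cells 7 were higher and 5 lower (50% of all genes called), with CPT1A at 0.78, ACADVL at -0.70 and ACADSB at 0.80.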

How the data were processed

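RNA-seq libraries of 5 groups of 16HBE cells were analysed. The submitters' processing notes name HISAT2, an aligner, and the build hg38, while the version, the read counter and the strand setting were not given in the sources used here. The labels' protocols name both a directional and a non-directional kit. The authors deposited whole-number read counts per gene and FPKM, which are counts per length and depth made by the authors. Counts were tested with edgeR 4.0.16 in R 4.3.3 (TMM scaling, filterByExpr with a minimum count of 10 and total of 15, robust quasi-likelihood), with 4 group means over 23 glucose libraries (19 residual degrees of freedom), and separately for not polarized cells (7 residual degrees of freedom). Benjamini-Hochberg adjusted p under 0.05 over all genes tested is a call. CPM used TMM factors over all 26 libraries, and FPKM served for levels between genes. Library totals are given with the results.

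Alternatives were DESeq2 1.42.0, other scaling and filters, limma 3.58.1 on log2(FPKM + 1) and log2(FPKM + 0.1), a replicate block, a term for the number set, each set alone, and each library left out. The tests of the sets, the neighbour windows and the promoters shown were added after the data were seen. The members and lists were chosen with earlier results of these data known. Up to 8 called members per comparison with the largest log2 change are given in full, and up to 3 called genes per other list with the lowest adjusted p, of which 1 is not reported here. Scripts were tested on simulated data.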

Additional observations from a re-analysis of the deposited data

Results flagged for a closer look

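In 6 of 124 tests of a member in a group, 1 library stood far from the others of its group. This is near the share of about 1 in 20 that chance gives, so the count is no excess. HMGCS1 stood at 137 CPM in WT normal glucose library 2, with the nearest library at 165 CPM. ACAT2 stood at 114.4 CPM in WT high glucose library 5, with the nearest at 132.2 CPM. CF normal glucose library 3 was high for DHCR7, at 248.6 CPM with the nearest at 192.7 CPM, and for MVD, at 124.3 CPM with the nearest at 105.9 CPM. In CF high glucose, TM7SF2 stood at 32.29 CPM in library 2, with the nearest at 28.66 CPM, and FADS1 at 254.1 CPM in library 3, with the nearest at 232.9 CPM.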

How the results depend on the processing

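The number of members called differed from the main count by over 1.5 times in these settings. For glucose in WT cells (2 members), DESeq2 called 4, no filter on low counts 1, the replicate block 6, the term for the number set 8, libraries numbered 1 to 3 alone 5 and those numbered 4 to 6 alone 7. For glucose in CF cells (3), the replicate block called 11, the term for the number set 12 and libraries numbered 4 to 6 alone 10, and leaving out 1 library gave 1 to 7: 1 without CF high glucose library 1 or 2 or CF normal glucose library 4 or 6, 5 without CF high glucose library 6, and 7 without CF normal glucose library 3. For the interaction (0), DESeq2 called 1, the term 1 and libraries numbered 4 to 6 alone 2. For CF against WT cells in high glucose (8), libraries numbered 4 to 6 alone called 14. The share of all genes called moved with these counts: for WT cells 2.96% in the main fit, 5.35% with DESeq2, 0.915% with no filter, 6.68% with the block, 8.68% with the term, and 2.65% and 4.88% in the sets alone; for CF cells 8.41%, then 15.7% with the block, 17.2% with the term, 13.8% in libraries numbered 4 to 6 and 6.53% to 9.81% without the libraries named. For the interaction it was 0.0367%, then 0.446% with DESeq2, 0.894% with the term and 2.29% in libraries numbered 4 to 6, and for CF against WT cells in high glucose 19.9%, then 27.9% in that set. The cause was not tested. The counts for CF against WT cells in normal glucose and for not polarized cells stayed within 1.5 times in all alternatives run. Of 1074 alternatives for the 49 called member values, 983 kept the direction and the call, 91 kept the direction without the call, 0 reversed, and 32 values kept the call in all. Same-numbered libraries correlated at a mean r of 0.137 to 0.233 in the 4 glucose and line comparisons, against 0.147 to 0.212 for other libraries of the same number set, and not every pair was over 0.1, so the numbers were not taken as pairs. For not polarized cells the mean was -0.00685.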
